A study of Homo sapiens with 28 samples.

Results

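The genes described here are long intergenic non-coding RNAs (symbols of the form LINC and a number) and small nucleolar RNA host genes (SNHG and a number) of U2OS, a human osteosarcoma cell line. Members were the symbols of either form with a mean raw count of at least 20 over 10 RNA-seq libraries. The rule gave 160 members, 142 LINC and 18 SNHG, from 866 matching symbols in a table of 25807. At the edge, LINC00173, LINC00226 and LINC00961 had mean raw counts of 20.7, 20.5 and 20.2 and were inside, whereas LINC00319, LINC01204 and LINC01534 had 19.3, 19 and 18.8 and were outside. All 160 members passed the filter on low counts, as did 59 of the 706 matching symbols below the minimum.

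RNA came from p53 wild-type U2OS cells that had spent 8 h in medium conditioned by other U2OS cells, and the groups differ in the donor cells of that medium. KO etoposide medium came from p53 knockout U2OS cells treated with 31.6 µM etoposide, a topoisomerase II poison that leaves DNA double-strand breaks, and WT etoposide medium from p53 wild-type U2OS cells given the same treatment. KO DMSO medium and WT DMSO medium came from knockout and wild-type donors without etoposide. The T0 cells were untreated and were taken at 0 h. Each of these 5 groups had 2 libraries, A and B. All recipients were p53 wild type, so the genotype in a group's name is that of the donor. Whether conditioned media still held etoposide, and whether the knockout donors were 1 clone, is not stated in the sources used here. No label names separate cultures behind libraries A and B, and the p-values therefore measure the spread between these samples, which may be technical.

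Long intergenic RNAs are transcribed by RNA polymerase II, and most are spliced, polyadenylated and not translated. Host genes carry small nucleolar RNAs (snoRNAs) in their introns. These are released after splicing and guide the modification and processing of ribosomal RNA, while the spliced host RNA often begins with a run of pyrimidines and is degraded by nonsense-mediated decay. After DNA damage p53 activates target genes such as CDKN1A, an inhibitor of the cell cycle, and MDM2, which turns p53 over. Some long intergenic RNAs are p53 targets themselves, among them LINC01021, also named PURPL, which is known to keep p53 levels low.

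Sequences around the annotated starts are given from RefSeq (build GRCh38.p14) for members whose values are described further on. LINC01021 rose with both etoposide media, and its window of 250 bases before to 50 after the start is printed with 2 abutting matches to the p53 half-site motif in capitals.

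LINC01021 (chr5:27472042-27472341, plus strand): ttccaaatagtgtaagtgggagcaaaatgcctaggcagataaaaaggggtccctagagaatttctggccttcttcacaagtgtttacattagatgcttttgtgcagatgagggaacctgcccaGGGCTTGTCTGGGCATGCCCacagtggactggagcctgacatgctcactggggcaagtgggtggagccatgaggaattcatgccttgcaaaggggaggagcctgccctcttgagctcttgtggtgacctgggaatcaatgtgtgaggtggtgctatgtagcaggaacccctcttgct

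Counted with 1 as the first transcribed base and -1 as the base before it, these matches began at -127 and -117. This motif was searched after the values had been seen. A single match was present in 8.06% of the 27305 symbols with a window in the table and in 6 of the 114 members whose window could be used (5.26%). A pair with no gap was present in 6 of the 27305 symbols (0.022%), and LINC01021 was the 1 member among them.

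A cyclic AMP response element half-site, TGACG on either strand, was found in 26.3% of the 114 member windows and 28.4% of all symbols. It was present in 7 of the 11 windows of members higher with both etoposide media and in 0 of the 9 windows of members lower with both, a description of lists chosen by their values. The matches of 6 of these 7 members are printed with 15 bases on each side and TGACG, or its reverse complement CGTCA, in capitals. The match shown for LINC00265 overlaps another on the opposite strand.

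LINC01411 (chr5:174336203-174336237, plus strand): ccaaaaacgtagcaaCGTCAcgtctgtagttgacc

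LINC01096 (chr4:13547903-13547937, minus strand): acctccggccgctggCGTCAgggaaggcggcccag

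LINC00265 (chr7:39733355-39733389, plus strand): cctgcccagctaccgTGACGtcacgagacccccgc

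LINC00941 (chr12:30795659-30795693, plus strand): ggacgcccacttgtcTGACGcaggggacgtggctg

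LINC01356 (chr1:112850679-112850713, minus strand): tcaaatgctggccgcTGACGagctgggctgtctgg

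LINC00242 (chr6:169798857-169798891, minus strand): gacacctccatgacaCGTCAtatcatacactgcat

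The E-box CACGTG was found in 6.14% of member windows and 8.77% of all symbols. In the same 2 lists it was present in 3 of the 11 higher and 1 of the 9 lower windows. The AP-1 motif TGANTCA was found in 14.0% of member windows and 9.37% of all symbols, and in 2 of the 11 and 2 of the 9. A match is a stretch of letters and not a bound site.

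Pyrimidine runs at the start of host genes are shown for SNHG transcripts that changed in different ways. Each stretch runs from 20 bases before to 40 after the annotated start, and capitals mark a run of at least 5 pyrimidines that begins with C within 10 bases of it.

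SNHG16 (chr17:76557744-76557803, plus strand): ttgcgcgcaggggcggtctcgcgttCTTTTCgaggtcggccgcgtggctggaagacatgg

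SNHG7 (chr9:136728145-136728204, minus strand): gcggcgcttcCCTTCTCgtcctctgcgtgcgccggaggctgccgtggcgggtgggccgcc

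SNHG12 (chr1:28581834-28581893, minus strand): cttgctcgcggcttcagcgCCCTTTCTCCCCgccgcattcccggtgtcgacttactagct

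SNHG11 (chr20:38446634-38446693, plus strand): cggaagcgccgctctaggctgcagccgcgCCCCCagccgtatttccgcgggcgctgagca

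SNHG3 (chr1:28505923-28505982, plus strand): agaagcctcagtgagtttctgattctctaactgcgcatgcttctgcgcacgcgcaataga

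SNHG20 (chr17:77088623-77088682, plus strand): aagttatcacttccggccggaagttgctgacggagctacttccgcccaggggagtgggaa

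SNHG3 and SNHG20 held no such run. A run was present in 9 of the 15 SNHG windows (60.0%), in 43.0% of all member windows and in 38.4% of all symbols. Among members called with both etoposide media, lists chosen by their values, 4 of the 11 higher and 7 of the 9 lower windows held a run. SNHG16, which rose with both etoposide media, and SNHG7, which fell with both, each held one.

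The 10 libraries held between 16825669 and 20290764 counts. KO DMSO medium B stood apart from its replicate: the chi-square per degree of freedom between the KO DMSO libraries was 12.78, against 1.899 to 5.094 between the replicates of each other group. Values of named members that rest on this library are followed by the value without it, a fit in which the remaining KO DMSO library is assumed to vary like the other groups. Levels are given as CPM (TMM-scaled counts per M counts of the library). CDKN1A was at 1222 to 1456 CPM and MDM2 at 158 to 169 CPM in the 4 etoposide-medium libraries, against 245 to 398 CPM and 53.7 to 63.9 CPM in the other 6. Of the bone-lineage markers, COL1A1, SPARC, ALPL, RUNX2 and SPP1 were present in every library, whereas TWIST1 was at 0 counts in all 10 and SP7, IBSP, BGLAP and COL1A2 reached at most 24 counts. RUNX2 fell with both etoposide media against DMSO media, by 1.94 on the log2 scale with KO and by 1.66 with WT media (edgeR adjusted p = 2.7e-09 and 1.35e-08), and ALPL rose by 0.80 and 0.52 (edgeR adjusted p = 4.84e-06 and 0.00102). With KO DMSO medium B left out, the KO changes were -2.03 for RUNX2 and 1.02 for ALPL. Of 6 markers of blood, epithelium, endothelium, liver and muscle, none exceeded 51 counts, and 3 passed the filter on low counts. Among these PTPRC, a marker of blood cells, was at 1 and 6 counts in KO etoposide medium against 17 and 10 in KO DMSO medium (log2 fold change -1.94, edgeR adjusted p = 0.0311, and -2.28 without KO DMSO medium B). DES, a marker of muscle, was at 7 to 18 counts in the 8 conditioned-medium libraries against 50 and 48 at T0, and was called lower with all 4 media. These markers moved in the same comparisons as the members, and their part in the results was not tested. In these bulk libraries, fewer cells with a transcript and less of it per cell cannot be told apart.

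Mean raw counts of the members ranged from 20.2 to 4217.2 with a median of 93.85. The highest was LINC00657 (NORAD), a cytoplasmic RNA that binds Pumilio proteins. It was followed by LINC00452, LINC00958, SNHG16, LINC01278, LINC01420, LINC00152 (CYTOR), SNHG1, LINC00674, SNHG3, LINC00842 and LINC01296. Per length, using the deposited lengths of 233 to 11193 bases, the order differed. The highest level over all libraries was that of LINC01420 (NBDY), at 97.4 CPM per kb, and LINC00657 was at 41 CPM per kb. The members' summed level was 2250 to 2288 CPM in KO etoposide medium, 2191 to 2280 in WT etoposide medium, 2098 to 2208 in KO DMSO medium, 2150 to 2218 in WT DMSO medium and 2162 to 2187 at T0. These ranges overlapped between neighbouring groups in this order.

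RefSeq listed 124 members under the same symbol and 34 under a newer one. It calls 148 long non-coding and 7 protein coding, among them LINC01420, which encodes the micropeptide NoBody of the mRNA decapping machinery. The current symbols of LINC00086 and LINC00087 could not be told apart, since both match SMIM10L2A and SMIM10L2B, and their counts are uncertain for that reason. Of the 18 SNHG members, 14 had a RefSeq snoRNA gene within their span, 36 snoRNA genes in all. SNHG1 held 9 and SNHG17 held 5. Of the 138 LINC members with a span, 1 did, LINC00888. The span of 9 SNHG and 19 LINC members overlapped a protein-coding gene, among them SNHG3 with RCC1 and SNHG4 with MATR3. Whether counting used strand is not given in the sources used here, so reads of such pairs may be shared.

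A member was called in a comparison at an adjusted p below 0.05 in edgeR's quasi-likelihood test, adjusted by Benjamini-Hochberg over the 15391 genes tested. With KO etoposide medium against KO DMSO medium, 48 members were called, 25 higher and 23 lower, which is 30% of members against 37.2% of all genes tested (18.8% higher and 18.4% lower). With WT etoposide medium against WT DMSO medium, 56 were called, 31 higher and 25 lower, which is 35% against 34.6% of all genes (16.1% higher and 18.5% lower). The members' share lay below the background with KO media and near it with WT media, which makes neither count particular to these genes. Without KO DMSO medium B the KO count was 47, 17 higher and 30 lower, of which 33 were among the 48, against 37.7% of all genes (19.1% higher and 18.6% lower). The KO count was 30 without KO etoposide medium A, and the WT count was 34 without WT etoposide medium B or WT DMSO medium B and 35 without WT DMSO medium A. The median log2 fold change of the members was -0.09 with KO media and 0.09 with WT media, against -0.01 and 0.01 over all genes tested. Median absolute log2 fold changes were 0.29 with KO and 0.31 with WT media, against 0.26 and 0.25 over all genes tested. Members had lower counts (median of the mean raw counts 93.85, against 371.2), so the called shares do not compare sizes of change. The part of the counts in these values was not tested.

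**Figure D1:**
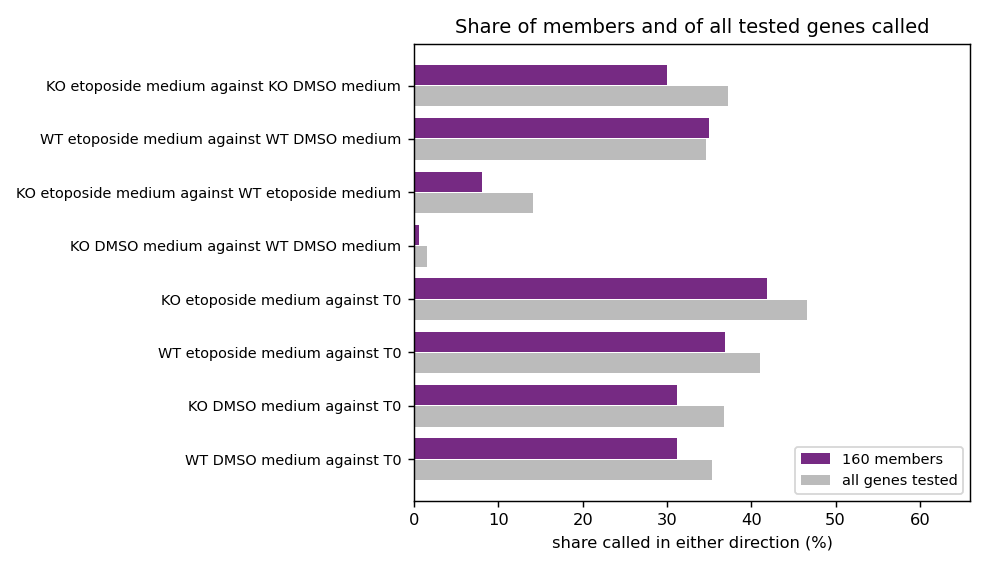
Share of the 160 members (purple) and of all 15391 genes tested (grey) called in either direction, in percent, for each comparison. With WT etoposide medium against WT DMSO medium the shares were 35% and 34.6%, and with KO DMSO medium against WT DMSO medium 1 member was called.

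The KO comparison and the WT comparison share no library. Of the members called, 27 were called in both, 56.2% of the KO list and 48.2% of the WT list. These were 16 higher and 11 lower, and all 27 had the same sign in both. Over all genes tested 3442 were called in both, 60.1% of the KO list and 64.6% of the WT list. Of these 3442 genes, 3397 had the same sign in both, so neither the overlap nor the shared sign is particular to the members. With KO DMSO medium B left out, 34 were called in both, 13 higher and 21 lower, and 21 of the 27 were among them. LINC00242, LINC00265 and LINC00632 were among those not called with KO media in that fit. Over the 160 members the log2 fold changes correlated with Pearson's r of 0.69 and Spearman's rho of 0.71, across genes of the same 8 libraries. Over all genes tested the values were 0.76 and 0.66.

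**Figure D2:**
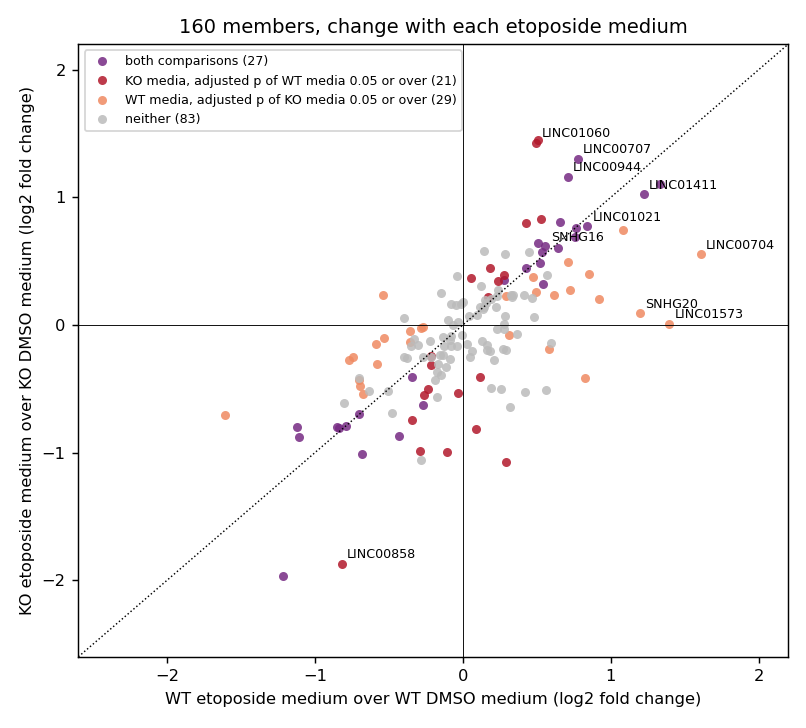
Log2 fold change of each of the 160 members with KO etoposide medium over KO DMSO medium (vertical axis) and WT etoposide medium over WT DMSO medium (horizontal axis). The dotted line marks equal change, and the 27 purple points called in both lie where both changes are positive or both are negative.

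LINC01021 was among the members higher with both etoposide media. Its levels were 8.94 and 8.38 CPM in KO etoposide medium, 11.8 and 11.9 in WT etoposide medium, 5.05 and 5.09 in KO DMSO medium, 6.37 and 6.88 in WT DMSO medium, and 4.96 and 5.86 at T0. Every etoposide-medium library was above the other 6, and both WT etoposide libraries were above both KO etoposide libraries. The log2 fold change was 0.77 ± 0.15 (SE, n = 2 libraries a group) with KO media (edgeR adjusted p = 0.00036), or 0.78 without KO DMSO medium B, and 0.84 ± 0.14 with WT media (edgeR adjusted p = 8.56e-05). CDKN1A and MDM2 moved in the same libraries, as given above, and their part in the result was not tested.

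LINC00657, which is known to be induced by DNA damage, showed a smaller difference at a much higher level. It had 257 and 227 CPM in KO etoposide medium, 245 and 249 in WT etoposide medium, 178 and 201 in KO DMSO medium, 206 and 201 in WT DMSO medium, and 213 and 213 at T0. The etoposide-medium libraries did not overlap the rest. On the log2 scale the change was 0.35 ± 0.08 with KO media (edgeR adjusted p = 0.00136), or 0.45 without KO DMSO medium B, and 0.28 ± 0.08 with WT media (edgeR adjusted p = 0.00897). The call was lost without KO etoposide medium A in the KO comparison, and without WT etoposide medium B or WT DMSO medium B in the WT comparison.

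LINC01411 was at 7.74 and 6.76 CPM in KO etoposide medium, 7.74 and 9.39 in WT etoposide medium, 3.63 and 3.5 in KO DMSO medium, 3.77 and 3.54 in WT DMSO medium, and 6.23 and 6.72 at T0. The 4 DMSO-medium libraries lay below all the others, T0 included. It rose 1.02 ± 0.17 on the log2 scale with KO media and 1.22 ± 0.17 with WT media (edgeR adjusted p = 9.18e-05 and 1.16e-05). When KO DMSO medium B was omitted, the KO change was 1.001. Against T0 it fell in both DMSO media, by 0.86 with KO (or -0.84 as a log2 fold change without KO DMSO medium B) and by 0.82 with WT DMSO medium. With WT etoposide medium it was 0.40 above T0 (edgeR adjusted p = 0.0432), a call that DESeq2 did not make.

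LINC00958 differed from T0 in the other direction. It was at 138 and 129 CPM in KO etoposide medium, 143 and 122 in WT etoposide medium, 102 and 89.7 in KO DMSO medium, 90.6 and 94.4 in WT DMSO medium, and 66 and 72.7 at T0. The 3 tiers did not overlap: T0 was lowest, the DMSO media were between, and the etoposide media were highest. Its log2 fold change was 0.48 ± 0.09 with KO media (edgeR adjusted p = 0.000229), or 0.40 without KO DMSO medium B, and 0.52 ± 0.09 with WT media (edgeR adjusted p = 0.000132).

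LINC00944 was at 6.49 and 8.53 CPM in KO etoposide medium, 6.26 and 5.32 in WT etoposide medium, 3.42 and 3.29 in KO DMSO medium, 3.57 and 3.54 in WT DMSO medium, and 2.48 and 3.01 at T0. Libraries with etoposide media were again above the rest. Its log2 fold change was 1.16 ± 0.18 with KO media and 0.71 ± 0.19 with WT media (edgeR adjusted p = 6.39e-05 and 0.0069), and the WT call was lost without WT etoposide medium A. The KO change was 1.13 without KO DMSO medium B. LINC01096 (0.64 and 0.51), LINC01356 (0.45 and 0.43) and LINC01588 (0.76 and 0.76, KO then WT media) were also higher in both. In the fit without KO DMSO medium B, their KO changes were 0.75, 0.45 and 1.01 in the same order.

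LINC00707 and LINC00941 were higher with both etoposide media, and higher still with the KO one. LINC00707 had 67.2 and 62.7 CPM in KO etoposide medium, 33.7 and 27.7 in WT etoposide medium, 20.1 and 32.5 in KO DMSO medium, 15.8 and 20.1 in WT DMSO medium, and 19.9 and 23.5 at T0. KO DMSO medium B, at 32.5, lay within the range of the WT etoposide libraries and well above KO DMSO medium A. In log2 terms it changed by 1.30 ± 0.16 with KO media (edgeR adjusted p = 2.16e-06), or 1.69 without KO DMSO medium B, and 0.78 ± 0.17 with WT media (edgeR adjusted p = 0.00134). LINC00941 changed by 0.69 ± 0.15 with KO and 0.76 ± 0.17 with WT media (edgeR adjusted p = 0.00156 and 0.0015), and by 1.07 with KO media without KO DMSO medium B. LINC00941 was also higher with KO than with WT DMSO medium, by 0.62 ± 0.17 (edgeR adjusted p = 0.0615), against 0.54 ± 0.15 between the etoposide media. Its KO change minus WT change was -0.075 ± 0.226. The 0.62 and the -0.075 include KO DMSO medium B, and their values without it are not given here.

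**Figure D3:**
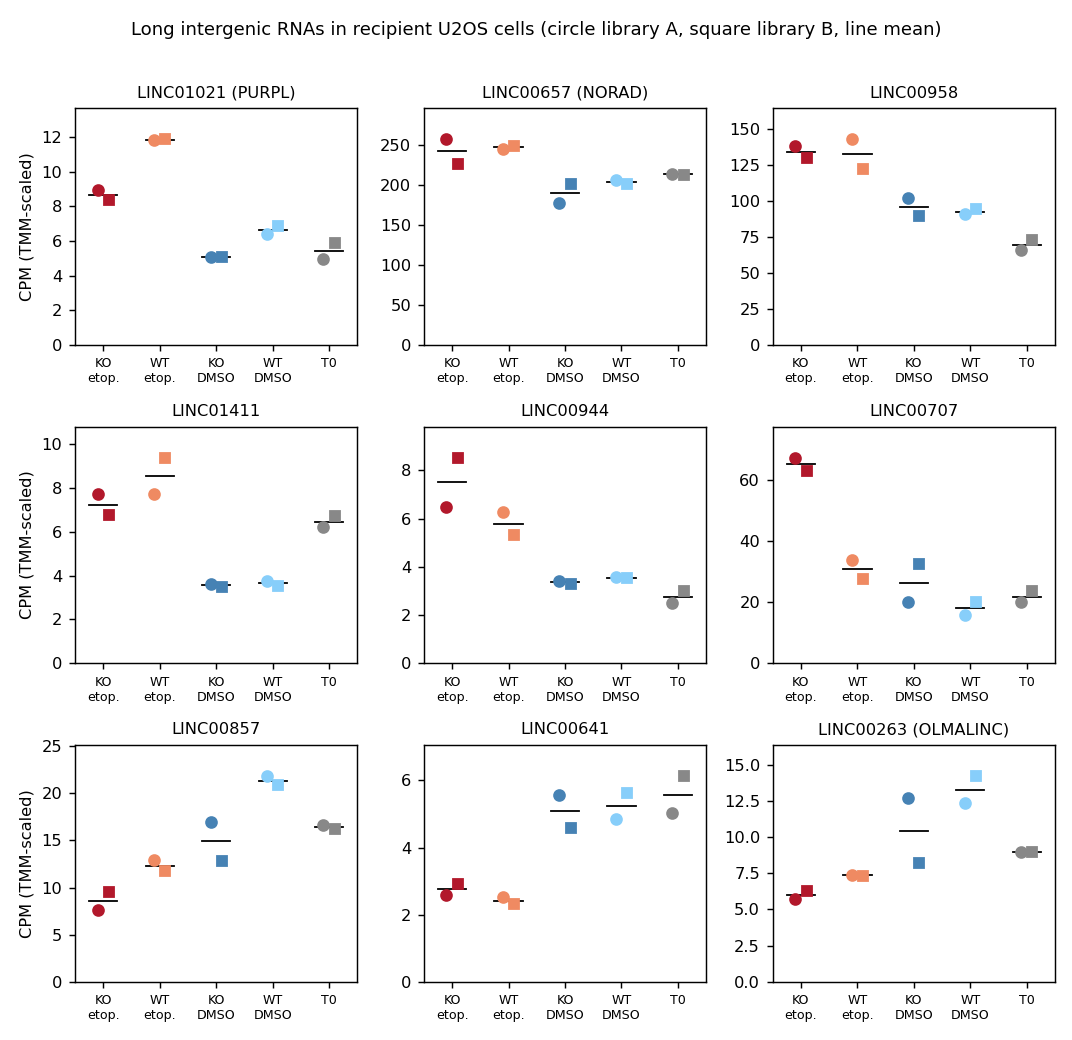
TMM-scaled CPM of 9 long intergenic RNAs in each library, by group from KO etoposide medium on the left to T0 on the right (circle library A, square library B, line the mean of 2). The upper 6 were higher with etoposide media, as in LINC01021 at 8.38 to 11.9 CPM against 4.96 to 6.88 CPM in the other libraries, and the lower 3 were lower.

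Members lower with both etoposide media included LINC00857, LINC00641 and LINC00263 (OLMALINC, named for oligodendrocyte maturation). LINC00857 was at 7.59 and 9.57 CPM in KO etoposide medium, 12.9 and 11.7 in WT etoposide medium, 16.9 and 12.9 in KO DMSO medium, 21.8 and 20.8 in WT DMSO medium, and 16.7 and 16.2 at T0. Within each donor genotype the etoposide libraries were lower than the DMSO libraries, and within each treatment the KO libraries were lower than the WT libraries. As a log2 fold change this was -0.80 ± 0.14 with KO media (edgeR adjusted p = 0.000222), or -0.98 without KO DMSO medium B, and -0.79 ± 0.13 with WT media (edgeR adjusted p = 0.000125).

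LINC00641 was at 2.6 and 2.91 CPM in KO etoposide medium, 2.51 and 2.32 in WT etoposide medium, 5.57 and 4.58 in KO DMSO medium, 4.84 and 5.61 in WT DMSO medium, and 5.02 and 6.13 at T0. The etoposide-medium libraries lay below all the others with no overlap. The log2 fold change was -0.88 ± 0.20 with KO media and -1.11 ± 0.20 with WT media (edgeR adjusted p = 0.00164 and 0.000285). Without KO DMSO medium B the KO value was -1.01.

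LINC00263 was at 5.69 and 6.3 CPM in KO etoposide medium, 7.39 and 7.3 in WT etoposide medium, 12.7 and 8.18 in KO DMSO medium, 12.3 and 14.2 in WT DMSO medium, and 8.98 and 8.98 at T0. KO DMSO medium B was the lowest of the 4 DMSO-medium libraries and the nearest to the etoposide ones. It fell by 0.80 with KO media and by 0.85 with WT media on the log2 scale (edgeR adjusted p = 0.00141 and 0.000586), and the KO value was -1.08 without KO DMSO medium B. LINC00173, LINC01011, LINC00087, LINC01515, LINC01089, LINC00632, LINC00963 and SNHG7 made up the other 8 members lower in both, of which LINC00173, near the minimum count, had the widest changes at -1.97 with KO (-2.27 without KO DMSO medium B) and -1.22 with WT media. Without that library LINC00632 was not called with KO media (-0.71, edgeR adjusted p = 0.0677), and the other 7 were.

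**Figure D4:**
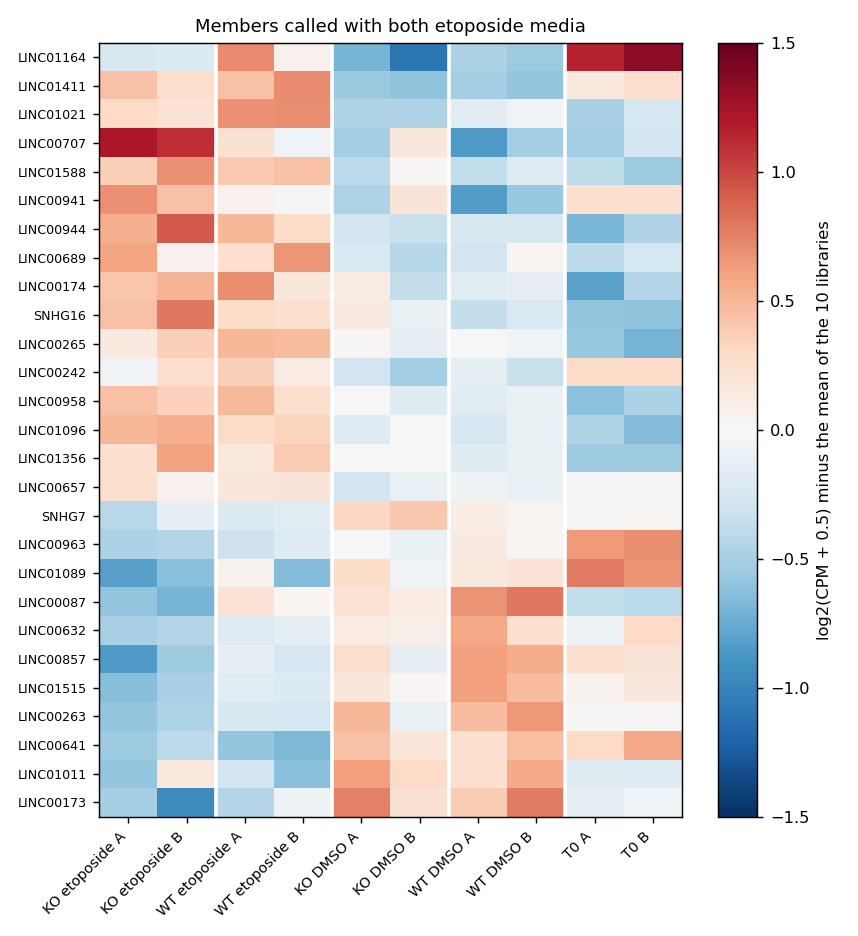
The 27 members called with both etoposide media, as log2(CPM + 0.5) in each library minus the member's mean over the 10 libraries (red above, blue below, colours end at 1.5 either way). Columns run from KO etoposide medium to T0, and rows are ordered by the change with WT media, with 16 higher members above 11 lower ones.

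Calls made in 1 of the 2 comparisons did not, by themselves, show a difference between them. The difference (KO change minus WT change, an interaction term) was called for 0 of the 160 members, against 2.12% of all genes tested (1.5% higher and 0.617% lower). DESeq2 also called 0 members. In edgeR the unadjusted p was below 0.05 for 27 of the 160 members, against 2918 of the 15391 genes tested. The members' share was therefore not above that of all genes. Among the members the smallest adjusted p was that of LINC00896 (difference -1.24 ± 0.33, edgeR adjusted p = 0.0527). LINC00896 had changed by -0.41 with KO media and 0.82 with WT media. With KO DMSO medium B left out, the difference for LINC00896 was -1.16. The number of members with a called difference moved when single libraries were left out. That over all genes tested moved as well, and both ranges are given in the last section.

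LINC00704 (MANCR, a mitosis-associated RNA) illustrates a change called with WT media. It was at 4.09 and 4.84 CPM in KO etoposide medium, 5.47 and 4.41 in WT etoposide medium, 2.1 and 3.96 in KO DMSO medium, 1.94 and 1.32 in WT DMSO medium, and 1.64 and 1.24 at T0. The KO DMSO libraries were far apart from each other, with B close to the etoposide libraries. On the log2 scale the change was 0.55 ± 0.25 with KO media (edgeR adjusted p = 0.0956) and 1.61 ± 0.28 with WT media (edgeR adjusted p = 0.000176). When KO DMSO medium B was omitted, the KO change was 1.08 and was called (edgeR adjusted p = 0.00204). With KO media, LINC01060 (1.43), LINC01322 (1.45) and LINC00858 (-1.87) were called and kept the call in every alternative run, and with WT media their log2 changes of 0.50, 0.51 and -0.82 did not pass the threshold. Their KO changes without KO DMSO medium B were 1.59, 1.27 and -2.11.

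Between the etoposide media, KO against WT donors, 13 members were called, 4 higher and 9 lower, which is 8.12% of members against 14.1% of all genes tested (8.5% higher and 5.57% lower). The comparison uses the same libraries as those above and adds no independent evidence to them. With single libraries left out, the number of all genes called moved (last section), and so did that of the members. The count was 5 and 8 without KO etoposide medium A and B, 6 and 7 without WT etoposide medium A and B, and 30 without either KO DMSO library. LINC00707 was higher by 1.08 ± 0.15 on the log2 scale (edgeR adjusted p = 0.000161) at the levels already given, and its 2 KO etoposide libraries were above all 8 others. LINC01060, LINC00941 and SNHG16 were higher by 0.98, 0.54 and 0.37, and each lost its call when at least 1 library was left out. LINC00883 (DUBR) was lower, at 7.39 and 7.28 CPM in KO etoposide medium and 11.6 and 11.7 in WT etoposide medium, against 9.1 and 7.72 in KO DMSO medium, 9.08 and 9.91 in WT DMSO medium, and 7.92 and 6.77 at T0. Its WT etoposide libraries were the highest of the 10, and the log2 difference between the etoposide media was -0.66 ± 0.14 (edgeR adjusted p = 0.00349).

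LINC00707 and LINC00883 were the 2 members whose call between the etoposide media was kept in every alternative run. LINC01573 (NALT1) had the lowest value, at 1.05 and 0.884 CPM in KO etoposide medium and 2.91 and 2.72 in WT etoposide medium (log2 difference -1.53 ± 0.33, edgeR adjusted p = 0.00458), and lost the call without KO etoposide medium B. LINC01021 was lower with the KO medium by 0.45 ± 0.13 (edgeR adjusted p = 0.0272), with no overlap of libraries, but DESeq2 did not call it and leaving out any 1 of the 4 etoposide libraries ended the call. LINC00087, LINC00898, LINC00969, SNHG18, LINC00221 and LINC00857 were the other lower members, and each lost its call when at least 1 library was left out. In the authors' deposited table, which held all 160 members and matched this contrast over 13604 genes, 9 members had an adjusted p below 0.05 (4 higher and 5 lower, against 12.2% of the 13109 genes of that table that have an adjusted p). The table gives no adjusted p for 21 of the 160 members, and the 9 were all among the 13 called here. In the authors' deposited table LINC00707 had a log2 fold change of 1.08 with an adjusted p of 0.00104 and LINC00883 one of -0.67 with an adjusted p of 0.00658.

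Between the DMSO media, KO against WT donors, 1 of 160 members was called, LINC00862, which was lower, against 1.56% of all genes tested (0.793% higher and 0.767% lower). LINC00862 was at 16.2 and 13.7 CPM in KO DMSO medium and 20.5 and 24.8 in WT DMSO medium, with 13.6 and 11.5 in KO etoposide medium, 12.5 and 14.6 in WT etoposide medium, and 29.4 and 33.8 at T0. The WT DMSO libraries were above the KO DMSO libraries, and the T0 libraries were the highest. The log2 difference was -0.60 ± 0.13 (edgeR adjusted p = 0.0318), and without KO DMSO medium B it was -0.48 with an edgeR adjusted p of 0.221. The number of members called between the DMSO media moved when single libraries were left out, most of all without KO DMSO medium A. The number over all genes tested moved as well, and both ranges are given in the last section.

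Among the 18 SNHG members, 2 rose and 4 fell with KO etoposide medium against KO DMSO medium, and 5 rose and 1 fell with WT etoposide medium against WT DMSO medium. Over all genes tested 37.2% were called with KO media and 34.6% with WT media, so 6 of 18 in each is near the background. In the fit without KO DMSO medium B, 1 SNHG member rose and 4 fell with KO media. SNHG16, host of SNORD1A, SNORD1B and SNORD1C, was at 131 and 167 CPM in KO etoposide medium, 117 and 114 in WT etoposide medium, 105 and 89.4 in KO DMSO medium, 74.8 and 82.4 in WT DMSO medium, and 63.5 and 63 at T0. No 2 groups overlapped, and the order of the groups was the one just given, from highest to lowest. Its log2 fold change was 0.61 ± 0.10 with KO media (edgeR adjusted p = 7.77e-05), or 0.50 without KO DMSO medium B, and 0.56 ± 0.10 with WT media (edgeR adjusted p = 0.000281). Its difference of 0.37 ± 0.10 between KO and WT etoposide media (edgeR adjusted p = 0.019) was lost without KO etoposide medium B or either WT etoposide library.

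SNHG7, host of SNORA17A and SNORA17B, was at 31.7 and 39 CPM in KO etoposide medium, 36.7 and 37.7 in WT etoposide medium, 52.8 and 56.2 in KO DMSO medium, 45.7 and 43.8 in WT DMSO medium, and 42.9 and 43.5 at T0. All 4 etoposide-medium libraries were below the other 6, and the KO DMSO libraries were the highest. It fell by 0.63 ± 0.09 with KO media (edgeR adjusted p = 2.89e-05), or by 0.58 without KO DMSO medium B, and by 0.27 ± 0.09 with WT media (edgeR adjusted p = 0.0325). DESeq2 did not call it with WT media, and leaving out any 1 of the WT etoposide, WT DMSO or T0 libraries ended that call.

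SNHG3, host of SNORA73A and SNORA73B, fell with KO media, and its WT change did not pass the threshold. It had 41.5 and 49.7 CPM in KO etoposide medium, 50.6 and 49.5 in WT etoposide medium, 70.5 and 58.3 in KO DMSO medium, 54.1 and 64 in WT DMSO medium, and 75.1 and 82 at T0. T0 was highest, and the etoposide libraries were below the DMSO libraries of both donors. In log2 terms it changed by -0.50 ± 0.11 with KO media (edgeR adjusted p = 0.00108), or -0.63 without KO DMSO medium B, and -0.24 ± 0.11 with WT media (edgeR adjusted p = 0.0923). SNHG1 and SNHG18 also fell with KO media, by 0.32 and 0.74, and both calls were lost without KO etoposide medium A or without KO DMSO medium A. Without KO DMSO medium B their changes were -0.44 and -1.02.

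SNHG11, SNHG12 and SNHG20 rose with WT media. SNHG12, host of SNORA16A, SNORA44, SNORA61 and SNORD99, was at 8.29 and 9.1 CPM in KO etoposide medium, 9.31 and 9.56 in WT etoposide medium, 6.84 and 7.92 in KO DMSO medium, 6.07 and 6.22 in WT DMSO medium, and 10.1 and 8.92 at T0. The WT DMSO libraries were the lowest of the 10, and etoposide media and T0 overlapped. As a log2 fold change this was 0.24 ± 0.14 with KO media (edgeR adjusted p = 0.203) and 0.62 ± 0.14 with WT media (edgeR adjusted p = 0.00237). SNHG11 changed by 0.27 with KO and 0.72 with WT media, and SNHG20 by 0.09 and 1.20 (edgeR adjusted p with WT media 0.000424 and 0.000997). In the fit of all 10 libraries the interaction term was called for none of them, so that fit did not show a difference between the media. Among all SNHG members this result was not the same in the fit without KO DMSO medium B, which leaves a single library in that group. SNHG6 also rose with WT media (0.31), and SNHG15 rose with KO media (0.39), a call lost without KO DMSO medium B (0.32, edgeR adjusted p = 0.0525). Without that library the KO changes of SNHG12, SNHG11 and SNHG20 were 0.35, 0.25 and -0.11.

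**Figure D5:**
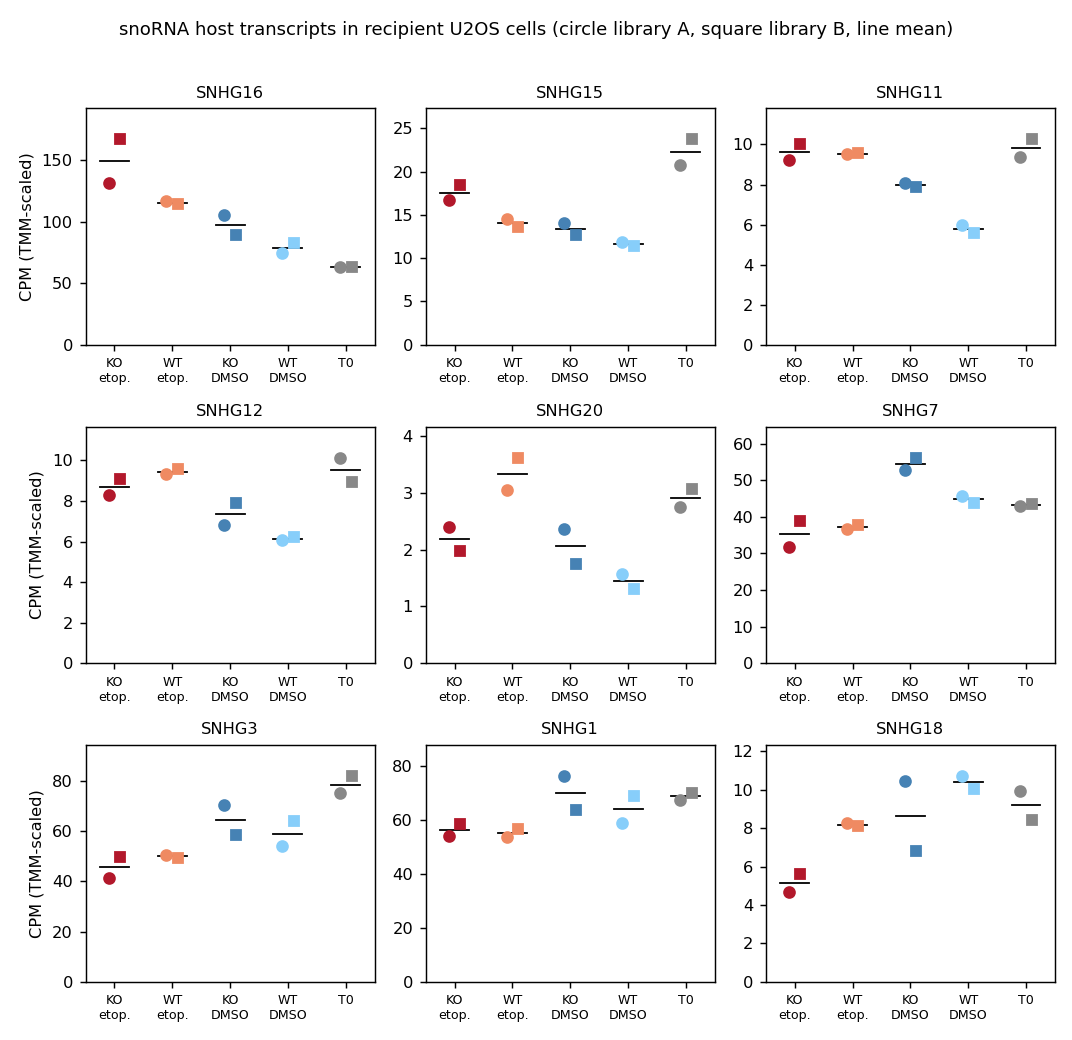
TMM-scaled CPM of 9 snoRNA host transcripts in each library, by group from KO etoposide medium on the left to T0 on the right (circle library A, square library B, line the mean of 2). SNHG16 was higher with both etoposide media (114 to 167 CPM) than at T0 (63 to 63.5 CPM), and SNHG7 was lower with them (31.7 to 39 CPM against 42.9 to 56.2 CPM in the other libraries).

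Comparisons with T0 differ in time as well as in medium, which cannot be told apart, and all share the T0 libraries. Members called against T0 numbered 67 with KO etoposide medium (24 higher and 43 lower) and 59 with WT etoposide medium (31 higher and 28 lower). The background was 46.6% of genes (22.8% higher and 23.8% lower) with KO and 41% (19.2% higher and 21.8% lower) with WT etoposide medium. With KO DMSO medium 50 were called (20 higher and 30 lower), against 36.8% of genes (18.1% higher and 18.7% lower), and without KO DMSO medium B 50 (25 higher and 25 lower), 39 of them among the first 50. With WT DMSO medium 50 were called (22 higher and 28 lower), against 35.4% of genes (17.8% higher and 17.6% lower). Leaving out T0 A or B gave 26 or 28 members with KO DMSO medium, and leaving out T0 B gave 32 with WT DMSO medium. LINC01164 had the largest fall among members in both DMSO media. It was at 1.05 and 1.09 CPM in KO etoposide medium, 2.51 and 1.41 in WT etoposide medium, 0.631 and 0.36 in KO DMSO medium, 0.816 and 0.759 in WT DMSO medium, and 3.59 and 4.14 at T0. T0 was above every other library and the DMSO media were lowest. Its log2 fold change against T0 was -1.85 ± 0.29 with KO etoposide medium, -0.95 ± 0.26 with WT etoposide medium, -2.95 ± 0.34 with KO DMSO medium (-2.61 without library B) and -2.29 ± 0.31 with WT DMSO medium, all called.

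LINC00673 was lower than T0 with all 4 media. It was at 14.7 and 16.2 CPM in KO etoposide medium, 13.1 and 12 in WT etoposide medium, 12.6 and 15.1 in KO DMSO medium, 13 and 12.4 in WT DMSO medium, and 29.1 and 24.7 at T0. The 8 conditioned-medium libraries all lay below T0, and among them both KO etoposide libraries were above the 4 libraries with media of WT donors. Its log2 fold change was -0.80, -1.10, -0.96 and -1.09 in the order just given, all called by edgeR, and -1.10 with KO DMSO medium without library B. SNHG15 (-0.34, -0.66, -0.73 and -0.94) and LINC00152, the cytoskeleton regulator RNA (-0.49, -0.70, -0.33 and -0.61), were also lower in each. LINC00958 (0.95, 0.93, 0.46 and 0.42) and SNHG16 (1.24, 0.87, 0.62 and 0.31) were higher in each. With KO DMSO medium B left out, the KO DMSO values of these genes were -0.67 for SNHG15, -0.44 for LINC00152, 0.55 for LINC00958 and 0.73 for SNHG16. Over all genes tested, 22.8% were called higher and 23.8% lower than T0 with KO etoposide medium, and 19.2% and 21.8% with WT etoposide medium. These shares were 18.1% and 18.7% with KO DMSO medium, and 17.8% and 17.6% with WT DMSO medium. Of the 18 SNHG members, the counts against T0 were 1 higher and 9 lower with KO etoposide medium, 1 and 5 with WT etoposide medium, 2 and 4 with KO DMSO medium, and 1 and 8 with WT DMSO medium. When KO DMSO medium B was omitted, they were 2 and 3 with KO DMSO medium.

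Other genes of the snoRNA pathway are given beside the share of all genes tested that was called, 37.2% with KO and 34.6% with WT media. Of 16 further snoRNA hosts tested, 0 rose and 2 fell with KO etoposide medium against KO DMSO medium, and 3 rose and 1 fell with WT etoposide medium against WT DMSO medium. EPB41L4A-AS1, an antisense host RNA, fell by 0.47 with KO media (by 0.53 without KO DMSO medium B) and rose by 0.45 on the log2 scale with WT media. Its difference of -0.91 ± 0.23 was called (edgeR adjusted p = 0.0431), and was -0.97 without KO DMSO medium B (edgeR adjusted p = 0.0107). Of 15 proteins of snoRNA particles and their assembly, 2 rose and 2 fell with KO media and 3 rose and 0 fell with WT media. DKC1 and NOP56 are in both lists, so the counts of hosts and of proteins are not separate. The fall of DKC1 with KO media in the fit of all 10 libraries counts in each. The assembly factors ZNHIT6 (0.41 and 0.39) and ZNHIT3 (0.22 and 0.35) rose with both KO and WT media. Of the 16 snoRNA hosts, 7 rose and 3 fell against T0 with KO etoposide medium, 5 and 2 with WT etoposide medium, 6 and 2 with KO DMSO medium, and 5 and 4 with WT DMSO medium. Of the 15 particle proteins, 7 rose and 0 fell against T0 with KO etoposide medium, 4 and 1 with WT etoposide medium, 7 and 0 with KO DMSO medium, and 2 and 1 with WT DMSO medium. Of all genes tested, 46.6%, 41%, 36.8% and 35.4% were called against T0 with these media in the same order. In the fit without KO DMSO medium B, 1 host rose and 2 fell and 2 particle proteins rose and 0 fell with KO media, and the ZNHIT3 change of 0.25 was not called (edgeR adjusted p = 0.0517). Against T0, KO DMSO medium then gave 6 hosts higher and 1 lower, and 6 particle proteins higher and 0 lower.

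Of 10 factors of nonsense-mediated decay, 1 rose and 5 fell with KO media and 1 rose and 4 fell with WT media, against 37.2% of all genes tested called with KO and 34.6% with WT media. Without KO DMSO medium B, 1 rose and 3 fell with KO media. SMG8 was higher (0.65 with KO and 0.54 with WT media), and SMG9 (-0.54 and -0.42) and SMG6 (-0.42 and -0.71) were lower in both. Of 16 other long non-coding RNAs tested, 1 rose and 4 fell with KO media and 1 rose and 5 fell with WT media, near those shares. With KO DMSO medium B left out, 17 RNAs of that list were tested, and 1 rose and 5 fell with KO media. NEAT1, the scaffold of paraspeckles, was lower by 0.90 with KO and by 0.38 with WT media, and PVT1 by 0.50 and 0.54. MALAT1, a nuclear speckle RNA, was lower by 0.54 with KO media. When KO DMSO medium B was omitted, the log2 changes with KO media were -1.16 for NEAT1, -0.55 for PVT1, -0.76 for MALAT1, 0.70 for SMG8, -0.50 for SMG9 and -0.50 for SMG6, all called. NEAT1 and MALAT1 were also lower with KO than with WT etoposide medium, by 0.82 and 0.65, and none of these 16 RNAs was called between the DMSO media.

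A pooled screen in the same series counted guide RNAs, and no member was a target there under its own symbol. LINC01588 was a target under an older name, C14orf182, with 6 guides. Their summed level was 45.7 to 48.9 CPM in KO etoposide cells, 49.9 to 57.5 in WT etoposide cells, 41.3 to 47 in KO DMSO cells, 52.3 to 55.9 in WT DMSO cells, 47.9 to 48.8 in KO T0 cells and 54 to 57.9 in WT T0 cells (3 libraries each, with the drug given to the cells themselves). Within each genotype the etoposide range overlapped those of untreated and T0 cells. The untreated KO libraries all lay below the KO T0 libraries, a difference between 3 and 3 libraries that was not tested. In the RNA data LINC01588 rose with both etoposide media, as given above, with levels of 6.24 and 7.96 CPM in KO etoposide medium, 6.41 and 6.62 in WT etoposide medium, 3.52 and 4.83 in KO DMSO medium, 3.57 and 4.1 in WT DMSO medium, and 3.54 and 3.12 at T0.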

How the data were processed

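RNA was sequenced from 10 libraries of recipient U2OS cells, 5 groups of 2. The authors deposited raw counts per gene symbol with a length, and a table of log2 fold changes with adjusted p-values for KO against WT medium, per the file headers. Its log2 fold changes matched those of KO against WT etoposide medium computed here (Pearson's r of 1 over 13604 genes). The submitters' processing notes name DESeq2 and hg19. The sources used here give no aligner, annotation or strand setting. The table's mean signal per gene and its Wald score are the authors', per the file headers, and were not used. Guide counts of the screen were used for 1 target. Counts (16825669 to 20290764 a library) were filtered with filterByExpr, scaled by TMM and fitted in edgeR 4.0.16 (R 4.3.3) over all 10 libraries with 5 residual degrees of freedom. Adjusted p-values are Benjamini-Hochberg over 15391 genes, with a threshold of 0.05. DESeq2 1.42.0, RLE scaling, no filter, a replicate block, fits of the compared groups alone, and leaving out each library were alternatives. The test was checked on simulated data. Members named are the 12 of highest mean count, the called members (at most 8 each way by fold change) and listed genes of smallest p, and a few further members and genes, SNHG transcripts among them, were named after their values were seen. The members and gene lists were chosen with earlier results of these data known.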

Additional observations from a re-analysis of the deposited data

How the results depend on the processing

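Of 344 called pairs of member and comparison, 152 kept the call under every alternative. Of 5159 values under an alternative, all 5159 kept their direction and 720 lost the call. Counts of members called between KO and WT DMSO media moved most: 1 as reported, 3 with RLE scaling, 4 with DESeq2, 12 with no filter, 3 with the replicate block, 0 with these groups alone, and 0 to 26 when single libraries were left out. Between KO and WT etoposide media, 13 became 22 with no filter and 25 with these groups alone, and ranged from 5 without KO etoposide medium A to 30 without KO DMSO medium A or B. The interaction count of 0 became 6 with no filter and ranged from 0 to 11. Against T0, KO DMSO medium gave 29 with DESeq2 and 26 (without T0 A) to 50 without single libraries, KO etoposide medium 45 to 75, WT etoposide medium 42 to 68 and WT DMSO medium 32 (without T0 B) to 60. KO etoposide against KO DMSO medium gave 30 (without KO etoposide A) to 47, and WT etoposide against WT DMSO medium 34 (without WT DMSO B) to 67. The summed level with WT etoposide medium, 2235.7 CPM, was 2334.5 CPM without TMM. Starts with a pyrimidine run fell to 14.0% of windows for runs of at least 8. Replicate letters did not pair the samples: deviations of same-lettered libraries correlated from -0.15 to 0.24 over 10 pairs of groups. The replicate block left the other counts within 1.5 times. Over all genes tested, calls between KO and WT DMSO media numbered 240, with 1186 under no filter, 388 under the replicate block, 2 with these groups alone and 0 to 3047 without single libraries. Interaction calls over all genes numbered 326, with 791 under no filter, 114 with these groups alone and 30 to 1654 without single libraries. Between KO and WT etoposide media 2166 genes were called, and 776 to 3468 without single libraries. Without WT DMSO medium A, WT etoposide against WT DMSO medium gave 3532 genes in place of 5326. Against T0, 5668 genes with KO DMSO medium became 3690 without T0 A and 3608 without T0 B, and 5447 with WT DMSO medium became 3618 without T0 B. The cause of these changes was not tested. With 2 libraries a group, small differences in members near 20 counts were not detectable.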
